A study of Mus musculus with 6 samples.

Results

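The keratin genes were examined in primary vascular smooth muscle cells of the mouse, a contractile cell type of arteries that is not an epithelium. Members were all protein-coding genes of the RefSeq table of GRCm38.p6 (the assembly also called mm10) whose symbol is Krt followed by a number, 53 of 21883 protein-coding genes. Keratin-associated protein genes (Krtap) were not members. Of the 53 keratins, 28 encode type I and 25 encode type II proteins. Open chromatin was measured by ATAC-seq, in which the transposase Tn5 cuts accessible DNA, and peaks are stretches with more cuts than the local background. There were 3 libraries labelled Negative Control and 3 libraries from cells given siRNA against Arid3a, whose product binds AT-rich DNA. The knockdown libraries 1, 2 and 3 each received a different siRNA, labelled si-Arid3a#1, si-Arid3a#2 and si-Arid3a#3, so their spread includes differences between siRNAs. Cells were kept for 24 h after transfection, and 50000 cells entered each assay, per the labels' protocols. An angiotensin II (Ang II) treatment of 36 h is also described there, without naming the libraries that received it, so it cannot be told apart from the groups. The labels do not state that libraries of a group were separate cultures. The spread between control libraries may thus be technical, and that between knockdown libraries may include technical spread besides the siRNA differences.

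Keratins are the intermediate filament proteins of epithelia. A type I protein pairs with a type II protein, and the pair in use marks the kind of epithelium, such as Krt8 with Krt18 in simple epithelia, Krt5 with Krt14 in basal layers and Krt1 with Krt10 in the upper epidermis. The genes lie in 2 clusters, type I on mouse chromosome 11 and type II on chromosome 15, and Krt18 is the type I gene that lies at the edge of the type II cluster. Smooth muscle builds its intermediate filaments mainly from vimentin and desmin, although Krt8 and Krt18 have been described in some smooth muscle cells.

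The 6 peak lists held 33248 to 52091 peaks. Control library 2 and knockdown library 3 had the shortest lists, 33248 and 41629 peaks, with a median of 8 tags (aligned cut fragments) at the summit of a peak, against 11 in the other libraries. Among 8 smooth muscle marker genes, 6 had a peak in all 6 libraries, among them Acta2, Tagln and Myh11, while Cnn1 had one in 4 libraries and Des, the desmin gene, in 0. Of 8 epithelial markers, 2 had a peak in all 6 libraries (Cdh1 and Grhl2) and 4 in none (Epcam, Cldn3, Cldn4 and Esrp1). Of the markers of other cell types, 4 of 6 endothelial, 3 of 5 fibroblast and 2 of 4 leukocyte genes had a peak in all 6 libraries, so a peak in a gene window did not separate cell types gene by gene. The lists hold no RNA, so neither the knockdown of Arid3a nor keratin transcripts could be read from them.

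Most keratin loci had no peak. A locus was counted as open in a library when at least 1 peak touched the gene body or the 1 kb on either side. By that measure 33 of 53 keratins (62.3%) were open in 0 libraries, against 29.0% of all protein-coding genes. Open in at least 1 library were 20 keratins, against 71.0% of all protein-coding genes. Only 6 keratins (11.3%) were open in all 6 libraries, against 50.3% of all protein-coding genes. Keratin genes are short, with a median length of 7.07 kb and a range of 2.81 to 50.6 kb, and a shorter window meets fewer peaks. Among 2515 other protein-coding genes of 5.12 to 9.48 kb, the interquartile range of the keratins, 43.1% were open in 6 and 31.5% in 0 libraries. No locus was open in all 3 control and 0 of 3 knockdown libraries, a pattern held by 0.101% of protein-coding genes. None showed the reverse either, as 0.114% of protein-coding genes did. With 3 libraries against 3, no locus could go below an exact two-sided permutation p of 0.1.

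**Figure D1:**
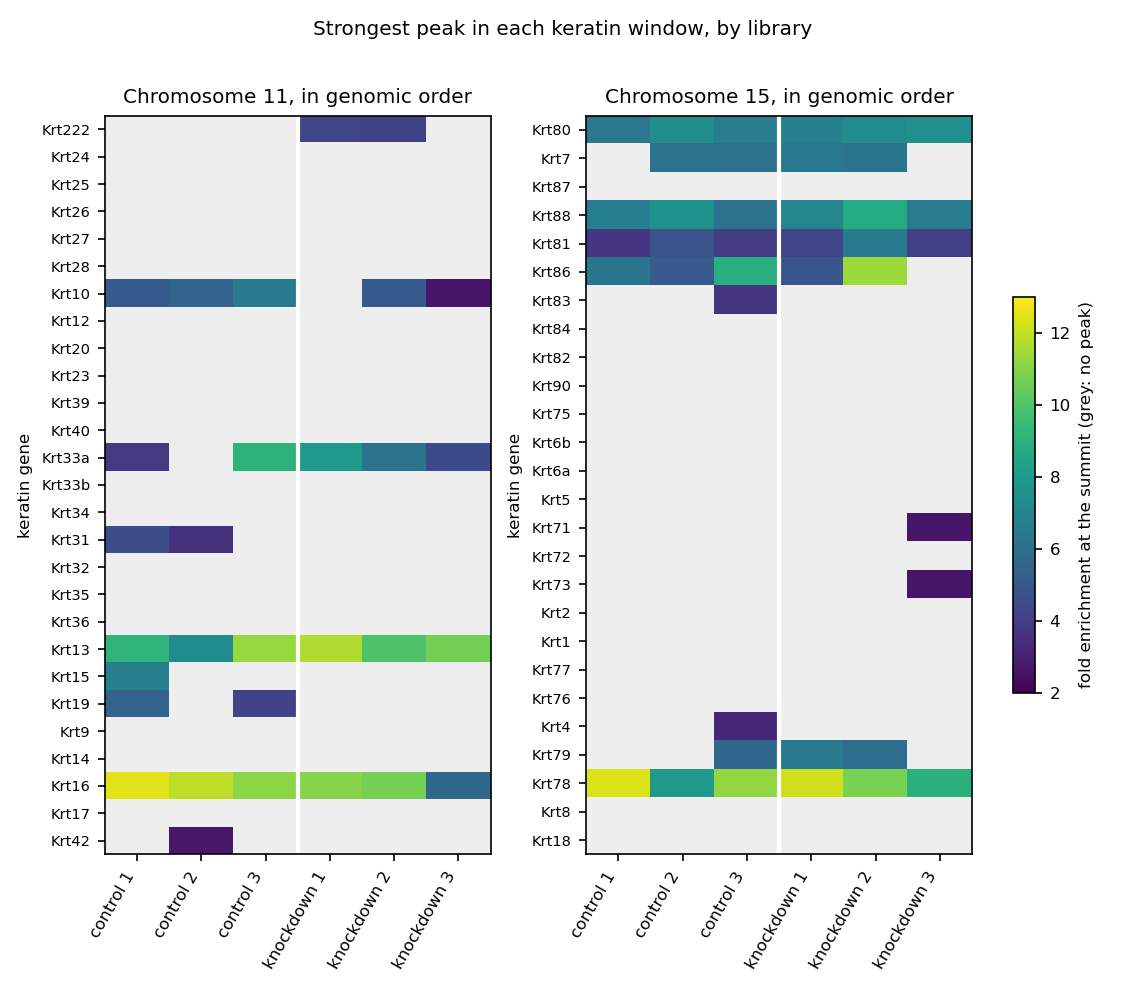
Each row is a keratin gene in genomic order and each column a library; colour gives the authors' fold enrichment at the summit of the strongest peak in the gene window, and grey means no peak. Most rows are grey throughout, and Krt13, Krt16, Krt80, Krt88, Krt81 and Krt78 are coloured in all 6 libraries.

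Both keratin types shared the pattern. Of the 28 type I genes, 2 were open in 6 libraries and 19 in 0, and of the 25 type II genes, 4 were open in 6 and 14 in 0. The number of open keratin loci was 12, 11 and 14 in control libraries 1 to 3 and 11, 12 and 10 in knockdown libraries 1 to 3. The means were 12.3 ± 1.53 in the control and 11.0 ± 1.00 in the knockdown group (SD, n = 3 each), and the groups overlapped. Of all protein-coding genes, 61.4% ± 4.48 were open in control and 62.4% ± 2.00 in knockdown libraries. The library with the fewest open keratins, knockdown 3, was among the libraries with short lists. With only the 33248 strongest peaks of each list, 5 keratins were open in 6 and 39 in 0 libraries.

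Krt13, the type I keratin of the upper layers of the tongue and oesophagus lining and the partner of Krt4, was, of the 36 keratins with a tabulated start, the only one with a peak over it. Its gene (gene ID 16663) lies on the minus strand at chr11:100117327-100121566, and the promoter table lists an outer start at 100121566 and an inner start at 100120577. A region at chr11:100120267-100120849 was present in all 6 libraries, its midpoint 19 bases past the inner start, and all 6 peaks covered that start. Its fold enrichment, the tag density at the summit over the background of the same library as the authors' caller gave it, was 9.21, 7.36 and 11.3 in control libraries 1 to 3. In knockdown libraries 1 to 3 it was 11.7, 9.94 and 10.7. The values of the groups overlapped, and control 2, the library with the fewest peaks, was lowest. The summits held 10 to 25 tags, and the peak ranked between the 72.9th and 92.2nd percentile of fold enrichment within its library. Both windows are printed from RefSeq (GRCm38.p6), from 250 bases before to 50 bases after the start, to show what differs between the start with a peak and the start without.
Krt13 inner start (chr11:100120528-100120827, minus strand): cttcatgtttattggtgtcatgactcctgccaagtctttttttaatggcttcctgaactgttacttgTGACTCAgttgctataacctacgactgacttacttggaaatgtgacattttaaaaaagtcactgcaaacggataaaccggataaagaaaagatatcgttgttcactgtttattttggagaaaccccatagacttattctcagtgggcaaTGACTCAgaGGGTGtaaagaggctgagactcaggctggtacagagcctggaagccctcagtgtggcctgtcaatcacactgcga
Krt13 outer start (chr11:100121517-100121816, minus strand): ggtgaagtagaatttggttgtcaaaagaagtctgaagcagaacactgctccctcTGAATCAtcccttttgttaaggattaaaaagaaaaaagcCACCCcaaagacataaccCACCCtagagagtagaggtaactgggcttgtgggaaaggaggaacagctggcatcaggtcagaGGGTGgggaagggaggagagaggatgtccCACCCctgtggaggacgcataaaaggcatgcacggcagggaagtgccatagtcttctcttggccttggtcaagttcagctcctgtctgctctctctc
Capitals mark TGANTCA, a pattern that includes TGACTCA, the core bound by AP-1 factors, and CACCC, a core bound by KLF factors, on either strand. The inner window holds TGANTCA 183 and 34 bases before the start, in both cases as TGACTCA. The outer window holds it 196 bases before the start, as TGAATCA, which is not the AP-1 core. CACCC occurs once in the inner and 4 times in the outer window. At least a pair of TGANTCA matches was found in 1 of 37 keratin windows, that of the inner Krt13 start, and in 79 of 21262 windows of all protein-coding genes (0.372%). Over all genes, such pairs were in 0.179% of windows with a peak in 6 libraries and in 0.442% of windows with a peak in 0. A match is a match of letters, and binding was not measured.

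Krt16, a type I keratin of wounded and thickened epidermis and of the hair follicle, was the other type I gene open in all 6 libraries. The gene (gene ID 16666) lies at chr11:100246091-100248902 and its region, chr11:100248899-100249435, reaches across the upper end, with nearly all of it outside the gene. With the gene body alone Krt16 was open in 1 library, and with peaks of a −log10 q of at least 5 in 5 libraries. The fold enrichment was 12.5, 11.9 and 11.1 in control libraries 1 to 3 and 11.0, 10.7 and 5.62 in knockdown libraries 1 to 3. All 3 knockdown values lay below all 3 control values, with the lowest in knockdown 3, one of the libraries with short lists. That order was held by 1.71% of the 20742 regions present in 6 libraries, and since fold enrichment is scaled within each library, it is a description with no test. The summit held 19 to 21 tags in the control libraries and 17, 17 and 7 in knockdown libraries 1 to 3. Within its library the peak stood at the 44.8th percentile of fold enrichment in knockdown 3 and at the 83.7th to 97.4th percentile elsewhere. Its neighbour Krt17, another type I keratin of those epidermal states, had no peak in its window, and a region present in 6 libraries lay 1.52 kb below it, at chr11:100254263-100254694, with a mean fold enrichment of 9.10 ± 1.89 (SD, n = 6). The type II partners Krt6a and Krt6b had no peak in any library.

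On chromosome 15, Krt80, Krt88, Krt81 and Krt78 were open in all 6 libraries. Krt80, a type II keratin widespread in epithelia (gene ID 74127, chr15:101348315-101370162), carried a pair of such regions. The region inside the gene, chr15:101368557-101369357, had a fold enrichment of 6.38, 7.41 and 6.64 in control and 6.30, 7.06 and 6.0 in knockdown libraries 1 to 3. The region 261 bases above the upper end, chr15:101370423-101370827, had 5.67, 5.50 and 6.5 in control and 6.82, 7.32 and 7.57 in knockdown libraries. At the outer region all knockdown values exceeded all control values, an order held by 4.0% of the regions present in 6 libraries, and at the inner region the groups overlapped. Both regions also lie within the long non-coding RNA gene Gm35853, and the inner region touches the microRNA gene Mir1941. A stronger region in 6 libraries, with a mean fold enrichment of 13.2 ± 2.65 (SD, n = 6), lay outside the window, 11.1 kb above Krt80.

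Krt88 (gene ID 66322, chr15:101447724-101453925) and Krt81, a keratin of the hair cortex (gene ID 64818, chr15:101459061-101463765), are neighbours. The Krt88 region, chr15:101453043-101453626, lay inside the gene, with a fold enrichment of 6.75, 7.60 and 6.14 in control and 6.99, 8.77 and 6.67 in knockdown libraries 1 to 3. The Krt81 region, chr15:101458400-101458847, lay 214 bases below the lower end, with 3.74, 4.87 and 3.91 in control and 4.29, 6.56 and 4.10 in knockdown libraries. Knockdown 2 was highest at both, and the groups overlapped. The Krt81 peak was weak within its libraries, between the 4.54th and 44.7th percentile of fold enrichment. Krt81 was open in 0 libraries with the gene body alone, in 1 with peaks of a −log10 q of at least 5 and in 3 with lists cut to equal length. Another region present in 6 libraries, chr15:101455074-101455767, lay between these genes, 1.15 kb above Krt88.

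Krt78, a type II keratin grouped here with the upper epidermis (gene ID 332131), held 6 of the 26 regions found in keratin windows. Its annotated span, chr15:101946001-101996624, is 50.6 kb and the longest of the keratins, while the tabulated start site lies at 101954287. The strongest region, chr15:101984000-101984596, had a fold enrichment of 12.4, 7.92 and 11.2 in control and 12.2, 10.8 and 9.03 in knockdown libraries 1 to 3. It ranked between the 78.7th and 92.0th percentile within its library, and the groups overlapped. A weaker region, chr15:101977226-101977821, was present in all 6 libraries with a mean fold enrichment of 5.16 ± 1.10 (SD, n = 6). Both lie before the tabulated start, by 30011 and 23236 bases at their midpoints. The other 4 regions were present in 5, 4, 2 and 2 libraries. When the gene model was ended at that start, it spanned 8.29 kb and no longer counted as open in all 6 libraries, so the call for Krt78 rests on the long annotated span.

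**Figure D2:**
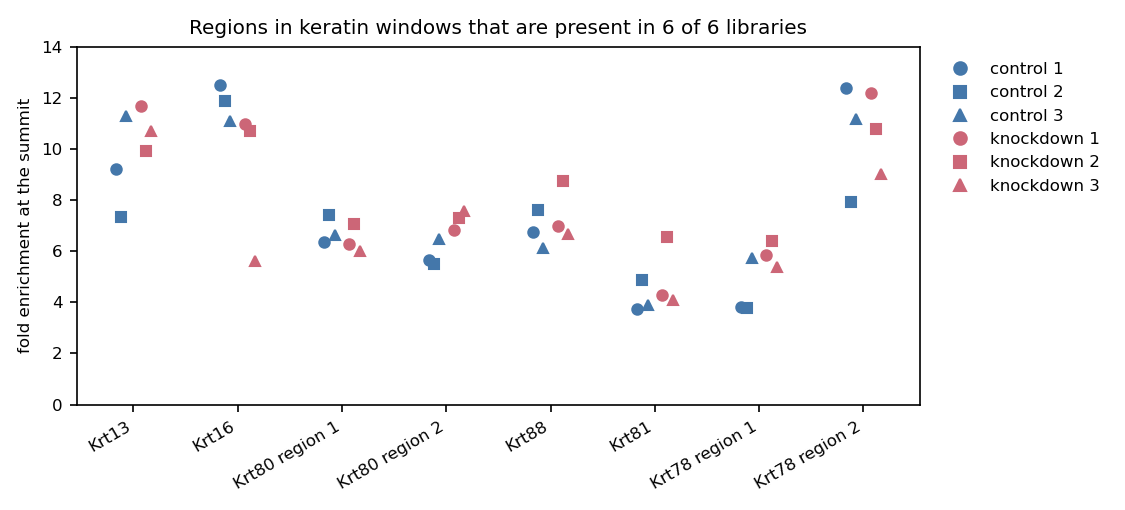
Points give the authors' fold enrichment at the summit, scaled within each library, for the 8 regions of keratin windows present in all 6 libraries; blue is control, red is knockdown, and the marker shape gives the replicate. The Krt13, Krt16 and second Krt78 regions have the highest points, 11.7, 12.5 and 12.4, and the Krt81 region lies between 3.74 and 6.56.

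Of the 26 regions in keratin windows, 8 (30.8%) were present in 6 libraries, 12 in 2 to 5 and 6 (23.1%) in 1. Over all 85174 merged regions of the genome, 24.4% were present in 6 libraries and 33.5% in 1. No keratin region was present in all 3 control and 0 knockdown libraries, against 0.277% of all regions, and none in all 3 knockdown and 0 control libraries, against 0.432%. In any number of libraries, 6 regions (23.1%) were seen in control and not in knockdown libraries, against 18.8% of all regions, and 4 (15.4%) in knockdown and not in control libraries, against 20.4%.

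Krt10, Krt33a and Krt86 were open in 5 libraries. Krt10, the type I keratin of the upper epidermis, had a region at chr11:99385914-99386852, 2981 bases past its start. The fold enrichment was 5.22, 5.59 and 6.52 in control libraries and 5.17 and 2.67 in knockdown libraries 2 and 3, with no peak in knockdown 1. Its partner Krt1 had no peak in any library. Krt33a, a keratin of the hair cortex, lacked a peak in control 2 and ranged from 3.83 to 9.11 in the others, at chr11:100013754-100014242. Krt86, also of hair, lacked one in knockdown 3 and ranged from 4.94 to 11.4, at chr15:101472907-101473277, 201 bases below its lower end. The missing libraries of Krt33a and Krt86 were those with the shortest lists, and the missing library of Krt10 was not.

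Krt7, a type II keratin of ducts and glands, was open in control libraries 2 and 3 and knockdown libraries 1 and 2. Its region, chr15:101414097-101414997, lay 2144 bases past the start, with a fold enrichment of 6.11 to 6.44. Krt79, a type II keratin of the hair follicle opening, was open in control 3 and knockdown libraries 1 and 2, at 5.66 to 6.47. Its region, chr15:101938960-101939255, lay 1217 bases past the start. Krt222 was open in knockdown libraries 1 and 2, with 4 tags at each summit. Krt31, of the hair cortex, was open in control libraries 1 and 2 (4.65 and 3.61), and Krt19, a tailless type I keratin of simple epithelia, in control libraries 1 and 3 (5.52 and 4.23). The Krt19 region, chr11:100145984-100146319, lay 58 bases above its upper end. Another region, chr11:100147627-100148050, lay 1.70 kb above Krt19 in all libraries except knockdown 3, with a mean fold enrichment of 9.14. With windows of 5 kb Krt19 was thus open in 5 libraries.

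A peak in 1 library was found at 6 keratins. Krt15, of basal cells and the hair bulge, had one in control 1 with a fold enrichment of 6.80 and 8 tags. Krt42 had one in control 2 (2.71), and Krt83, of hair, and Krt4, of the oesophagus, in control 3 (3.76 and 3.25). Krt71 and Krt73, of the inner root sheath of the hair, had one in knockdown 3 alone. Each of these held 2 tags and a fold enrichment of 2.67, and the −log10 q was 1.31, next to the smallest value of 1.3 that the deposited list held. The 6 single-library peaks thus rested on 2 to 8 tags. Only that of Krt15, with a −log10 q of 7.32, also passed a −log10 q of at least 5.

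The 33 loci without a peak covered every class of epithelium. Of the simple epithelial keratins, 4 of 7 had none, namely Krt8, Krt18, Krt20 and Krt23. Of the basal keratins, Krt5 and Krt14 had none, which leaves Krt15 of the 3. In the upper epidermis, Krt1, Krt2, Krt9 and Krt77 had none (4 of 6), and of the wound and appendage keratins, Krt6a, Krt6b and Krt17 (3 of 5). Krt12 of the cornea, Krt24 and Krt76 had none among 5 keratins of internal stratified epithelia and cornea. The root sheath keratins lacked a peak in 6 of 8 cases (Krt25, Krt26, Krt27, Krt28, Krt72 and Krt75). Hair and nail keratins lacked one in 10 of 15 cases (Krt32, Krt33b, Krt34, Krt35, Krt36, Krt39, Krt40, Krt82, Krt84 and Krt87). Krt90 had none either. Without a peak, accessibility was not detectable at this depth, which does not show that these loci were inaccessible.

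Krt8 and Krt18, the pair of simple epithelia, had no peak in any library, although open chromatin lay between them. The genes point away from each other and stand 23.9 kb apart, Krt8 at chr15:101996711-102004342 on the minus and Krt18 at chr15:102028216-102032026 on the plus strand. A region present in 6 libraries, chr15:102016061-102016630, lay 11.7 kb above Krt8 and 11.6 kb below Krt18, within the long non-coding RNA gene Gm41404. Its fold enrichment was 13.1, 6.37 and 11.3 in control and 12.4, 9.54 and 8.81 in knockdown libraries 1 to 3, and the groups overlapped. Regions in fewer libraries lay nearer, 1.06, 2.73 and 6.28 kb above Krt8, in 1, 2 and 4 libraries. Another lay 4.07 kb below Krt18, in 1 library. The promoter windows of both genes, of Krt7 and of Krt10 are printed from the same RefSeq table, since they show how far CpG content differs among keratin starts that all lack a peak.
Krt8 (chr15:102004293-102004592, minus strand): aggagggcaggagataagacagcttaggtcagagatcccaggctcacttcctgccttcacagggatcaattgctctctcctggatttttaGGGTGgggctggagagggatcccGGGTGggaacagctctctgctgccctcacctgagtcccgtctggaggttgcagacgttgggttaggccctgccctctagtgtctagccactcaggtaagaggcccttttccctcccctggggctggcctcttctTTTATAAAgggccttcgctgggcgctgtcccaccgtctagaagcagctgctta
Krt18 (chr15:102027966-102028265, plus strand): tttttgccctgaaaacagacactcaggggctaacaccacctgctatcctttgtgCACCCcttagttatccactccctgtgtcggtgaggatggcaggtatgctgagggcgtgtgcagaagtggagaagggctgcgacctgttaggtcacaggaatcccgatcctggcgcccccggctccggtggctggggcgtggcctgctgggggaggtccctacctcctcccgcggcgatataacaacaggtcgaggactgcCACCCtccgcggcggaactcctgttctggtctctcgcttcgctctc
Krt7 (chr15:101412153-101412452, plus strand): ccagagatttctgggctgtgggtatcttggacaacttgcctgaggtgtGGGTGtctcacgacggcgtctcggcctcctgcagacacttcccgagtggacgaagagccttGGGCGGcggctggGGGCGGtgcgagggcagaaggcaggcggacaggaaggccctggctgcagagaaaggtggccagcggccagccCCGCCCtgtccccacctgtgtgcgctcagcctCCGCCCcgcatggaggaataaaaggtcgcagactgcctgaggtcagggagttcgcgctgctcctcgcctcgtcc
Krt10 (chr11:99389315-99389614, minus strand): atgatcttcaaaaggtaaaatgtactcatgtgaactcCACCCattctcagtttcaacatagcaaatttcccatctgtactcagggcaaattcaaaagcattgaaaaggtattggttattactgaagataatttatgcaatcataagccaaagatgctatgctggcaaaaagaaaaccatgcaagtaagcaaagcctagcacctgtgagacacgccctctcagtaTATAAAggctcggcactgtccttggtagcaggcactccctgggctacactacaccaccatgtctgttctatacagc
Capitals mark TATAAA, the core of the TATA box, GGGCGG, the core bound by Sp1 and KLF factors, and CACCC, each on either strand. The Krt7 window has 21 CpG and 4 GGGCGG, the Krt18 window 17 CpG and neither TATAAA nor GGGCGG. The Krt8 window has 6 CpG and TATAAA on both strands in overlap, 3 and 1 bases before the start and so next to it. The Krt10 window has 2 CpG and TATAAA 26 bases before the start.

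The promoter table held 37 windows of 36 keratins, and the other 17 keratins were not analysed here in this respect. A peak in all 6 libraries touched 1 keratin window (2.70%), that of the inner Krt13 start, against 28.8% of 21262 windows of protein-coding genes, and 36 (97.3%) were touched in 0 libraries, against 48.9%. The median of CpG observed over expected, the CpG number divided by that expected from the C and G content, was 0.280 in keratins, with a range of 0.0918 in Krt90 to 0.782 in Krt28. It was 0.567 over all windows, 0.802 over windows with a peak in 6 libraries and 0.245 over windows with a peak in 0. At 0.6 or more were 3 keratins (8.11%), Krt28, Krt7 and Krt18, against 47.7% of all windows.

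TATAAA, counted anywhere in the window, was found in 19 keratin windows (51.4%), against 12.6% of all windows. GGGCGG was found in 2 (5.41%), those of Krt7 and Krt75, against 46.2%. CACCC was found in 31 (83.8%), against 59.5%. TGANTCA was found in 2 (5.41%), both of Krt13, against 6.99%. Matches on both strands were counted and matches of different motifs could overlap. Low CpG content went with few peaks across genes in general: of 4083 other windows within the interquartile range of the keratins, 0.169 to 0.376, 6.02% had a peak in 6 libraries and 81.6% in 0. The part of base composition in the low number of keratin peaks was not tested.

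**Figure D3:**
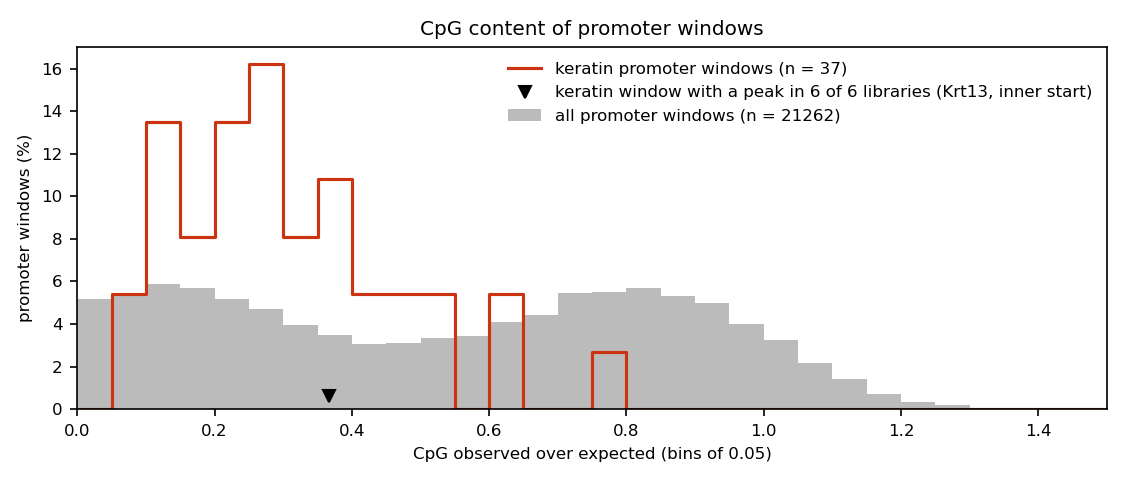
Histogram of CpG observed over expected in bins of 0.05 for 37 keratin promoter windows (red line) and 21262 windows of protein-coding genes (grey), each as a percentage of its own windows. Keratins sit mostly below 0.6, in the lower of the 2 humps of all genes, and the triangle marks the inner Krt13 start, with 0.367.

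The type I cluster on chromosome 11 spans 1037 kb with 27 keratins, and the type II cluster on chromosome 15 spans 684 kb with 26. Over both, 19 regions were present in all 6 libraries, 8 of them in keratin windows and 11 outside. The chromosome 11 cluster held 3.37 regions per 100 kb, against 5.04 on the rest of the chromosome and 12.4 and 10.6 in the 500 kb below and above it. The chromosome 15 cluster held 5.70 per 100 kb, against 4.37 on the rest of the chromosome and 9.0 and 11.6 in its flanks. Both clusters thus had fewer regions than their direct flanks, and the chromosome 15 cluster had more than its chromosome.

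Several runs of neighbours had no peak, and their number was given no test. Krt84, Krt82, Krt90, Krt75, Krt6b, Krt6a and Krt5 follow each other over 188 kb with 3 regions among them and none in their windows. Krt24 to Krt28 covered 94.9 kb with 1 region, and Krt12, Krt20, Krt23, Krt39 and Krt40 covered 128 kb with 2. Krt2, Krt1, Krt77 and Krt76 covered 82.2 kb and the hair keratins Krt32, Krt35 and Krt36 covered 28.6 kb, with 0 regions each. Over the 33 loci without a peak, the nearest region lay a median of 12.6 kb away and the nearest region present in 6 libraries 72.1 kb away. The latter distance was longest at Krt6a, 231 kb, and shortest at Krt17, 1.52 kb.

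**Figure D4:**
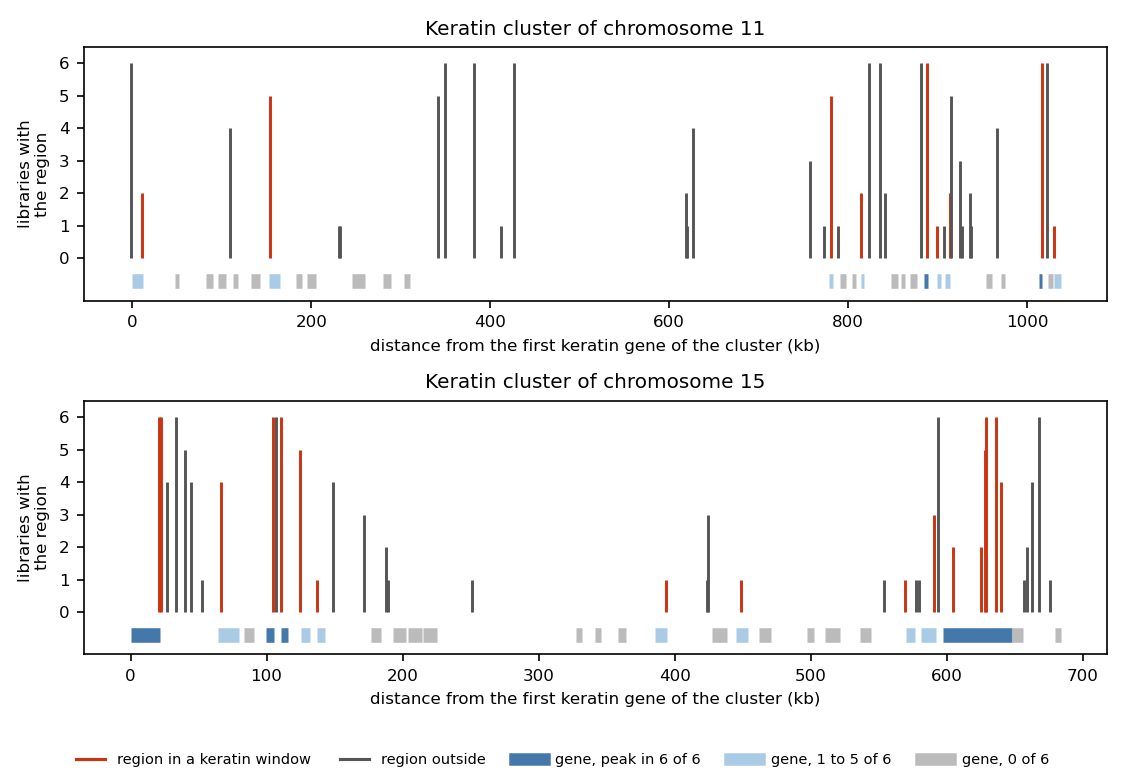
Vertical lines are merged regions along each keratin cluster, with height giving the number of libraries (0 to 6) and red marking regions in keratin windows; boxes below are keratin genes, dark blue where open in 6, light blue in 1 to 5 and grey in 0 libraries. The horizontal axis is the distance in kb from the first keratin gene. The long grey stretch around the middle of the chromosome 15 cluster holds Krt6b, Krt6a and Krt5.

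Some regions outside the windows lay close to keratins. At chr11:100113474-100114029, 3.30 kb below Krt13 and 3.99 kb above Krt36, a region in 6 libraries had a mean fold enrichment of 10.8 ± 1.42 (SD, n = 6). At chr11:100055688-100056355, 5.14 kb above Krt31, the mean was 10.2 ± 2.17. At chr15:101941849-101942329, 1.52 kb above Krt79, it was 7.93 ± 1.81. Regions inside keratin windows and present in 6 libraries ran from a mean of 4.58 at Krt81 to 10.6 at Krt78, so these 3 lay within or just above that range. With windows of 5 kb, Krt222, Krt79, Krt17 and Krt36 also counted as open in 6 libraries, for a total of 10. For Krt222 this rested on a region 1.48 kb below it, chr11:99230142-99231278. That region lies across an end of another protein-coding gene, Smarce1, so it need not belong to the keratin.

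Genes that act with keratins were counted by the same window. Of 18 other intermediate filament genes, 9 were open in 6 libraries and 4 (22.2%) in 0, near the 50.3% and 29.0% of all protein-coding genes. The vimentin gene Vim, Synm, Lmna, Lmnb1 and Lmnb2 were among the 9, and Des and the neurofilament genes Nefm, Nefh and Ina were the 4. Of 24 genes of desmosomes, hemidesmosomes and the cornified envelope, to which keratins anchor, 10 (41.7%) were open in 6 libraries and 6 in 0, also near those shares. The plakoglobin gene Jup, Pkp2, Plec, Dst and the integrin genes Itga6 and Itgb4 were among the 10, and Dsg1a, Dsg2, Dsc1, Evpl, Flg and Ivl were the 6. Dsp, the desmoplakin gene, was open in 1 library. These genes had median lengths of 13.6 and 33.1 kb, longer than the keratins' 7.07 kb.

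Among 17 transcription factors and splicing regulators of epithelial identity, 5 (29.4%) were open in 6 libraries, namely Trp63, Klf5, Grhl1, Grhl2 and Ehf, and 2 (11.8%) in 0 (Tfap2a and Esrp1), beside 50.3% and 29.0% of all protein-coding genes. Trp63 encodes p63, the regulator of basal keratins such as Krt5 and Krt14, and the windows of those keratins held no peak. Of 6 repressors of the epithelial state, Zeb1, Zeb2, Snai1, Snai2 and Twist2 were open in 6 libraries and Twist1 in 5, too few genes to set against those shares. The median length of these lists was 26.9 and 25.6 kb, and a peak inside a long gene says nothing about its transcription.

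**Figure D5:**
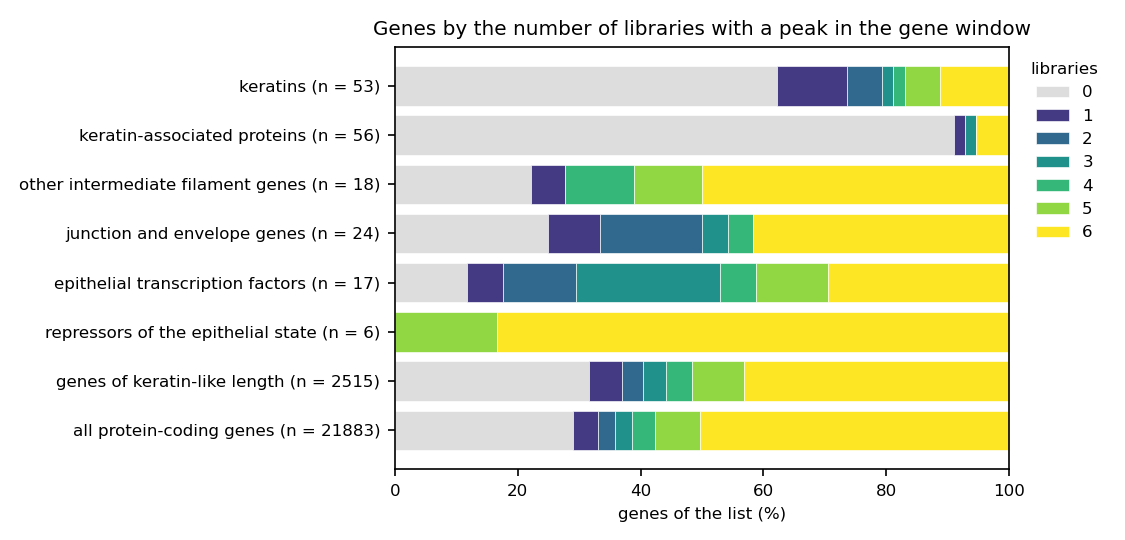
Bars give, for each gene list, the percentage of its genes by the number of libraries (0 to 6) with a peak in the gene window. Keratins and keratin-associated protein genes have the longest grey bars, 62.3% and 91.1% of genes with a peak in 0 libraries. Protein-coding genes of keratin-like length have 31.5%, and genes in the shorter length range of the keratin-associated proteins, not drawn, have 85.1%.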

How the data were processed

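ATAC-seq was run on 6 libraries, and the authors deposited a list of peaks for each. The submitters' processing notes name Bowtie2, Picard, MACS2 and the build mm10, with versions, parameters, duplicate handling, any Tn5 shift and sequencing depth not given in the sources used here. Kept duplicates would raise tag numbers. Per the deposited files, each peak has a fold enrichment (a ratio over local background), a −log10 p and a −log10 q, and a score that is 10 times the deposited −log10 q cut to a whole number. The smallest deposited −log10 q was 1.3 to 1.32, as a q cutoff of 0.05 leaves.

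Overlapping peaks (at least 1 shared base) of the 6 lists were joined into 85174 regions. A gene was open in a library when a peak overlapped its body or 1000 bases on either side. The gene table gives no strand; starts and strands came from the RefSeq promoter table, which held 36 of 53 keratins. Summit tags were recovered from the deposited fold and −log10 p under the Poisson model of MACS2 and matched within 0.001 for at least 99.996% of peaks, checked also on simulated data. No test was run over members: groups were compared by whether all 3 libraries of a group and 0 of the other held a peak. Alternatives were other windows, stricter or equally long lists, other overlaps and left-out libraries. Exons and introns were not analysed here. Every keratin open in 6 libraries is described with its regions, and the others are named by library. Members and lists were chosen with earlier results of these data known. Python 3.11.15, pandas 2.3.3 and numpy 2.4.6 were used.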

Additional observations from a re-analysis of the deposited data

How the results depend on the processing

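The counts of keratin loci open in 6, in at least 1 and in 0 libraries were 6, 20 and 33. With the gene body alone they were 4, 15 and 38, and with the 33248 strongest peaks of each list 5, 14 and 39. They were 6, 20 and 33 when the summit or 50% of the peak had to lie in the window. The setting that left out peaks shared with a neighbouring gene also gave 6, 20 and 33. It kept the peaks of Krt80 and Krt222, which lie in or near non-coding genes. No keratin region lay within 1 kb of another protein-coding gene, so this setting could not change the counts. With 5 kb on each side the counts were 10, 32 and 21, with Krt222 among the 10 through the region at the end of Smarce1. With 1 kb on each side of the start alone, for 36 genes, they were 1, 2 and 34, Krt13 being the locus in 6 libraries. With a −log10 q of at least 5 they were 4, 13 and 40. With gene models ended at the tabulated start, chosen after seeing the data, they were 5, 20 and 33. With the 4 longest lists they were 8, 17 and 36. There, 1 locus (Krt19) was open in both of their control and neither knockdown library, and 1 (Krt222) in both knockdown and neither control library. Leaving out each library in turn gave 6 to 7 loci in all libraries, 18 to 20 in at least 1 and 33 to 35 in 0. Loci open in every control library kept and in no knockdown library then ran from 0 to 1, Krt19 without control 2 and Krt31 without control 3. Those open in every knockdown library kept and in no control library ran from 0 to 1, Krt222 without knockdown 3. The cause of these shifts was not tested, except that fewer libraries make the rule easier to meet. Of the 80 recomputed counts of loci, 69 stayed within 1.5 times, including counts of 0 that stayed 0. This tally compares numbers and not shares: the 34 loci without a peak near the start were of 36 genes, against 33 of 53. It also includes the shared-peak setting that could not change the counts. For the 20 named loci with a peak, the number of libraries was unchanged in 106 of 149 recomputed values, those of the shared-peak setting included. Over the 8 keratin regions present in all 6 libraries, the median fold enrichment was 6.89 whichever peak stood for a region. The median CpG ratio was 0.267 before the start alone. No paired analysis was possible because the results are counts without a test and the labels do not say that equal numbers mark a shared culture. Depth limits weak loci: the median summit held 8 to 11 tags, so a locus without a peak is one not detected.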

Other observations

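The keratin-associated protein genes, which encode matrix proteins of the hair shaft, were counted by the same window. Of 56 such genes, 51 (91.1%) were open in 0 libraries, and Krtap1-4, Krtap1-5 and Krtap2-4 were open in 6. They are short, with a median of 0.833 kb, and of 2385 other protein-coding genes of their length range 85.1% were open in 0 and 8.47% in 6 libraries. Within the chromosome 11 keratin cluster, 23 of them fill a stretch of 444 kb between Krt40 and Krt33a. That stretch held 2.03 regions per 100 kb, of which 0.676 per 100 kb were present in all 6 libraries. The 3 regions present in all 6 libraries there had mean fold enrichments of 10.1 ± 1.86, 7.90 ± 3.31 and 8.21 ± 1.53 (SD, n = 6), and the long non-coding RNA gene Gm32730 overlaps the first in part and contains the second.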
